A study of Rattus norvegicus with 4 samples.

Results

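Interleukin-6 family signaling was followed in cultured neonatal rat cardiomyocytes through 10 genes: the secreted ligands Il6, Lif, Il11 and Ctf1, the receptor chains Il6r, Il6st, Lifr and Osmr, the transcription factor Stat3 and its inhibitor Socs3. The genes were taken as a list of the pathway, drawn up with earlier results of these data known. Every probe set paired with 1 of them in the annotation of the array was used. This gave 14 of the 31042 probe sets tested and covered 9 of the 10 genes. Osmr, the oncostatin M receptor chain, was paired with no probe set, so its RNA is not analysed here.

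Ligands of this family are small secreted cytokines that bind a specific receptor chain and then engage gp130, the shared signaling chain that Il6st encodes. Assembly of the receptor activates JAK kinases bound to gp130, which phosphorylate STAT3, and STAT3 enters the nucleus and switches on genes that include Socs3, whose protein blocks the receptor complex. In the heart, gp130 signaling is known for promoting cardiomyocyte survival and hypertrophy, and cardiotrophin-1, LIF and IL-6 are made by both muscle and non-muscle cells of the heart.

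The cells came from the ventricles of Sprague-Dawley rats 1 to 2 days old. In the Ad-atrogin-1 group they carried an adenovirus that expresses the ubiquitin ligase subunit atrogin-1 together with GFP, and in the Ad-GFP group an adenovirus that expresses GFP alone, in both cases for 24 hours in serum-free medium. Each group had 2 arrays (Affymetrix rat genome GeneChip), labelled as biological replicates, and both groups were infected, so that no uninfected level is given. How many rats gave each culture and which promoter drives atrogin-1 are not given in the sources used here.

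Fbxo32, the gene of atrogin-1, had log2 signals of 13.55 and 13.47 on the Ad-atrogin-1 arrays and 5.24 and 5.04 on the Ad-GFP arrays and so matched the labels. The array medians lay between 5.51 and 5.52 and the lower quartiles between 3.88 and 3.94; a probe set with signals near or under the lower quartile gives no exact fold change. The cardiomyocyte markers that could be read (5 of 6; troponin T, troponin I, the ventricular light chain, alpha-actinin and alpha myosin heavy chain) had log2 signals of at least 10.01 on every array. Fibroblast collagens were bright too, with Col1a1 at 11.17 and 11.61 in Ad-atrogin-1 and 10.84 and 11.50 in Ad-GFP.

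None of the 14 probe sets passed the test, which required an adjusted p under 0.05 by limma and at least a 2-fold change; 0.274% of all probe sets passed it. Directions differed between ligands and the shared receptor chain. In all 4 ligand genes, Il6r and Socs3 the higher Ad-atrogin-1 array lay under the lower Ad-GFP array, in Il6st the reverse held at all 4 probe sets, and in Stat3 and Lifr the groups overlapped. Thus 6 probe sets were lower without overlap, against 22.1% of all probe sets, and 4 were higher without overlap, against 18.3%. An unadjusted p under 0.05 was reached by 8 of the 14 (Il6, Lif, Il11, Ctf1 and Il6r lower, and Il6st higher at 3 of its probe sets), against 11.2% of all probe sets (5.61% lower and 5.6% higher).

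**Figure D1:**
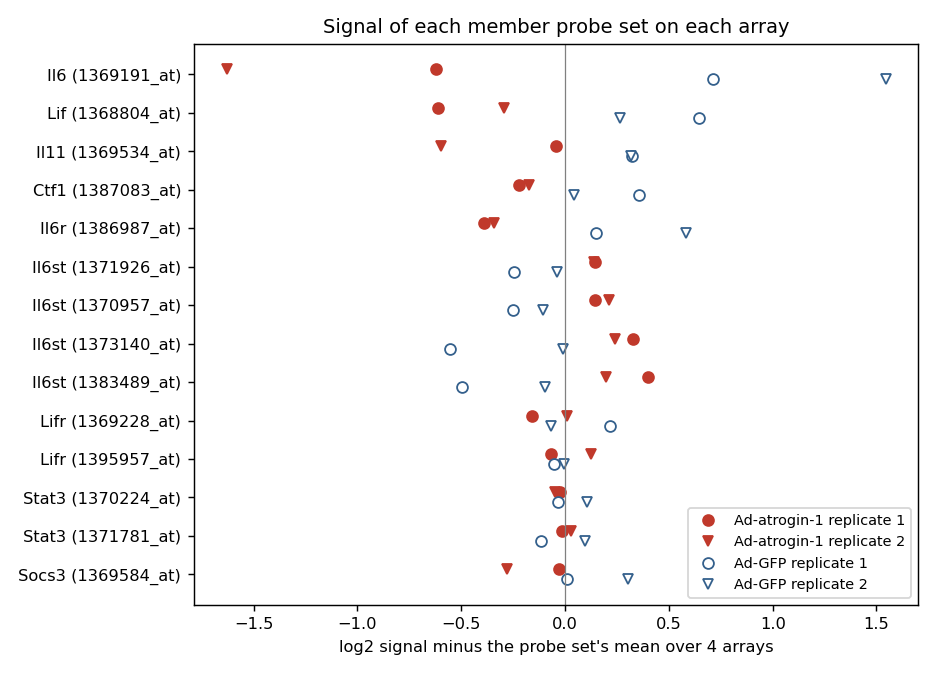
Log2 signal of each of the 14 probe sets on each array, minus the mean of that probe set over the 4 arrays (horizontal axis), with genes ordered as ligands, receptor chains, Stat3 and Socs3. Filled red symbols are Ad-atrogin-1 and open blue symbols Ad-GFP arrays; the red symbols lie left of the blue ones for the 4 ligands, Il6r and Socs3, right of them for Il6st, and are mixed with them for Lifr and Stat3.

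Il6 showed by far the largest difference. The gene encodes interleukin-6, the cytokine that gave the family its name and a main mediator of the acute-phase response. Its promoter is shown because it carries the letters of several binding motifs of inflammatory transcription factors. The stretch is the 250 bases before the RefSeq start of Il6 (GRCr8, chr4:5894576-5894825, minus strand), and the capitals mark the matches to the motifs searched:
Il6: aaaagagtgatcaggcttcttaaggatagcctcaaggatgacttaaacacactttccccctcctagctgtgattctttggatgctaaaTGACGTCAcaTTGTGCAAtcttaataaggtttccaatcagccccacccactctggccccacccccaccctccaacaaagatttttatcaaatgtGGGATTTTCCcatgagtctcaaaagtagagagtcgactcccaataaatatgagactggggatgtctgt

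The motif of cyclic AMP response element binding proteins, TGACGTCA, stands at bases -162 to -155 before the start and is held by 1.59% of the 33469 promoters of the same length. The motif of C/EBP factors (TTGCGCAA or TTGCACAA) is matched on the opposite strand at -152 to -145 and is held by 0.872% of promoters. The NF-kappaB motif (GGGAN followed by TTTCC, itself a case of the second form searched, GGGNN followed by TTTCC) is matched at -68 to -59 and is held, in either form, by 1.3% of promoters. These are matches of letters, read on both strands, and no binding was measured.

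Il6 had log2 signals of 7.83 and 6.83 on the Ad-atrogin-1 arrays, against 9.17 and 10.00 on the Ad-GFP arrays. The groups did not overlap: the nearest arrays of different groups were 1.33 apart, more than the 1.01 between the 2 Ad-atrogin-1 arrays and the 0.83 between the 2 Ad-GFP arrays. The mean was 7.33 ± 0.71 in Ad-atrogin-1 and 9.58 ± 0.59 in Ad-GFP (SD, n = 2 arrays each). The log2 fold change was -2.25, or 4.77-fold lower. Its limma standard error was 0.40, with a 95% interval of -3.26 to -1.25. Both draw on the prior from all probe sets (SD 0.139) and do not follow from the SDs of Il6. From the Il6 arrays alone, with equal variances, the standard error was 0.65, so the limma interval is the narrower. Of the 31042 probe sets, Il6 ranked number 3 from the lowest log2 fold change, and 0.271% of them were at least 2-fold lower. Its adjusted p was 0.132 over all probe sets and 0.0990 over the 14217 genes taken at their brightest probe set (limma). With 2 arrays a group an exact two-sided permutation test cannot give a p under 0.333. In such bulk RNA, fewer cells that make Il6 and less Il6 RNA per cell cannot be told apart.

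The other ligands differed in the same direction by smaller amounts. Lif, the leukemia inhibitory factor gene, had log2 signals of 3.66 and 3.98 on the Ad-atrogin-1 arrays, against 4.92 and 4.54 on the Ad-GFP arrays. The groups were 0.56 apart at their nearest, beyond the larger gap of 0.38 within a group. The log2 fold change of Lif was -0.91 ± 0.18 (standard error), with an adjusted p of 0.164 from limma, and its Ad-atrogin-1 signals lay next to the lower quartile.

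Il11 encodes interleukin-11, a cytokine of fibroblasts and epithelia that also signals through gp130. It had 5.32 and 4.77 on the Ad-atrogin-1 arrays, against 5.69 and 5.69 on the Ad-GFP arrays (a log2 fold change of -0.64 with a standard error of 0.20 and an adjusted p of 0.328 from limma). The Ad-GFP arrays were almost equal and the spread lay in the Ad-atrogin-1 pair, whose 2 arrays were 0.55 apart, more than the 0.36 between the groups at their nearest; without Ad-atrogin-1 replicate 2 the log2 fold change was -0.36. Its promoter is shown as the other member promoter with a match, to the AP-1 motif (TGAGTCA or TGACTCA, in capitals), at -142 to -136; 4.05% of promoters hold that motif. The stretch is the 250 bases before the RefSeq start (GRCr8, chr1:78098372-78098621, plus strand):
Il11: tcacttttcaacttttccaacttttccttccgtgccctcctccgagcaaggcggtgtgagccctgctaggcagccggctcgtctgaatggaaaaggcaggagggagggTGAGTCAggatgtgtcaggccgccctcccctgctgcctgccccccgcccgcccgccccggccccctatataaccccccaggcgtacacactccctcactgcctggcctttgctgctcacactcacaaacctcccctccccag

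Of the 9 members with a promoter in the RefSeq table, Il6 and Il11 were those with a match to any of the 5 motifs. The STAT motif TTCNNNGAA, which 7.67% of promoters hold, was matched in none of the 9 windows, that of Socs3 included, which says only that these letters are not within those 250 bases.

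Ctf1, the gene of cardiotrophin-1, had 3.44 and 3.49 on the Ad-atrogin-1 arrays, against 4.02 and 3.70 on the Ad-GFP arrays. The groups did not overlap, but the 2 Ad-GFP arrays were 0.31 apart and the groups 0.22 at their nearest. The log2 fold change was -0.40 ± 0.15 (standard error), with an adjusted p of 0.405 from limma, from signals around and under the lower quartile; without Ad-GFP replicate 1 it was -0.24.

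Among the receptor chains, Il6r and Il6st differed in opposite directions. Il6r, which encodes the IL-6 binding chain, had 4.70 and 4.75 on the Ad-atrogin-1 arrays, against 5.24 and 5.68 on the Ad-GFP arrays. The 2 Ad-atrogin-1 arrays were only 0.05 apart and lay 0.50 below the nearer Ad-GFP array. Its log2 fold change was -0.74 ± 0.17 (standard error), with an adjusted p of 0.218 from limma; it was 1.66-fold lower.

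Il6st, the gp130 gene, was read by 4 probe sets, all higher on both Ad-atrogin-1 arrays. At 1371926_at, the brightest, it had 10.71 and 10.71 on the Ad-atrogin-1 arrays, against 10.32 and 10.53 on the Ad-GFP arrays. At 1370957_at it had 10.57 and 10.64 in Ad-atrogin-1, against 10.18 and 10.32 in Ad-GFP. The Ad-atrogin-1 pair was thus the tighter of the pairs at both bright probe sets. At 1373140_at the signals were 8.91 and 8.82 in Ad-atrogin-1, against 8.02 and 8.57 in Ad-GFP, and at 1383489_at they were 8.39 and 8.19 in Ad-atrogin-1, against 7.50 and 7.89 in Ad-GFP. Ad-GFP replicate 1 was the lowest array at all 4. The log2 fold changes were 0.28, 0.36, 0.57 and 0.59 in that order (standard errors 0.13, 0.12, 0.20 and 0.17), with adjusted p between 0.303 and 0.495 (limma). Without Ad-GFP replicate 1 they were 0.18, 0.29, 0.30 and 0.40. The 4 probe sets read the same 4 RNA samples and are not replicates of the difference, and 1370957_at was the 1 at which the groups were farther apart (0.25) than the arrays of either group (at most 0.14).

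**Figure D2:**
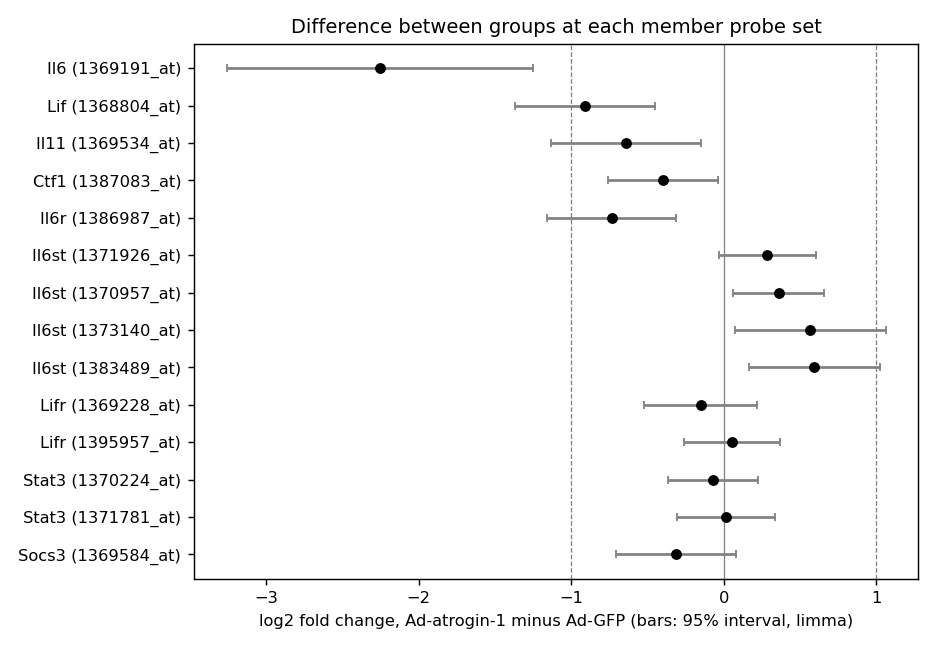
Log2 fold change (Ad-atrogin-1 minus Ad-GFP, horizontal axis) of the 14 probe sets, with bars for the 95% interval of the limma fit and dashed lines at 2-fold. Il6 at -2.25 lies alone beyond 2-fold, the other ligands and Il6r lie between -0.91 and -0.40, and the 4 Il6st probe sets between 0.28 and 0.59.

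Lifr encodes the chain that pairs with gp130 for LIF and cardiotrophin-1. At 1369228_at it had 4.53 and 4.70 on the Ad-atrogin-1 arrays, against 4.91 and 4.63 on the Ad-GFP arrays, and at 1395957_at 4.02 and 4.22 in Ad-atrogin-1, against 4.04 and 4.09 in Ad-GFP. The groups overlapped at both. The log2 fold changes were -0.15 (95% interval -0.52 to 0.22) and 0.06 (-0.26 to 0.37), the second from signals next to the lower quartile.

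Stat3, the transcription factor that the pathway activates, was bright and overlapped between the groups. At 1370224_at it had 10.90 and 10.88 on the Ad-atrogin-1 arrays, against 10.89 and 11.03 on the Ad-GFP arrays. At 1371781_at it had 10.27 and 10.31 in Ad-atrogin-1, against 10.17 and 10.38 in Ad-GFP. The log2 fold changes were -0.07 (95% interval -0.37 to 0.23) and 0.02 (-0.30 to 0.34). The array reads Stat3 RNA, whereas the activity of the protein depends on its phosphorylation, which was not measured here.

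Socs3 encodes the feedback inhibitor that binds gp130. It had 7.30 and 7.06 on the Ad-atrogin-1 arrays, against 7.35 and 7.64 on the Ad-GFP arrays. Both Ad-atrogin-1 arrays were lower, but Ad-atrogin-1 replicate 1 and Ad-GFP replicate 1 were 0.04 apart, less than the arrays of either group. The log2 fold change was -0.31 (standard error 0.16, 95% interval -0.71 to 0.08, adjusted p = 0.553, limma). Leaving out replicate 2 of Ad-atrogin-1 gave -0.19, and leaving out that of Ad-GFP gave -0.17.

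**Figure D3:**
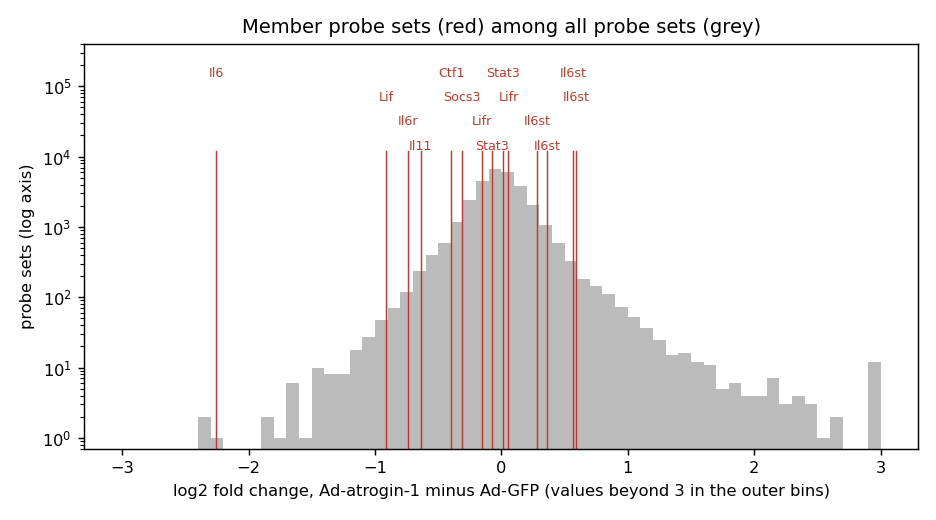
Number of probe sets (vertical axis, log scale) by log2 fold change (Ad-atrogin-1 minus Ad-GFP, horizontal axis) for all 31042 probe sets in grey, with red lines at the 14 probe sets of the members. Il6 lies at the lower end of the whole distribution, while the other lines fall between -0.91 and 0.59.

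The rest of the pathway was described through 4 lists with 67 measured genes, each at its brightest probe set. None of the 67 passed limma with p adjusted over the 14217 genes, of which 0.513% passed. Over all genes, 22.3% were lower and 20.7% higher without overlap, and the median log2 fold change was -0.003.

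Of 7 other ligands and receptors, 2 (Il11ra1 and Clcf1) were lower without overlap, none was higher, and the median log2 fold change was -0.20. That median was the value of Clcf1, whose signals were at most 2.90 on every array, under the lower quartiles. The largest log2 fold changes of the list were -0.22 for Cntf, the ciliary neurotrophic factor gene, and -0.21 for Il11ra1, the interleukin-11 receptor chain. Ebi3, a subunit of interleukin-27, followed at -0.21, and the groups overlapped at Cntf and Ebi3. Il11ra1 had 7.74 and 7.68 in Ad-atrogin-1, against 7.93 and 7.91 in Ad-GFP, without overlap. Osm, the oncostatin M gene, had signals of at most 3.76 on every array, under the lower quartiles.

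Of 10 genes of the JAK and signal relay, 2 were higher and 2 lower without overlap, with a median of 0.03. The kinase gene Jak1 had 9.67 and 9.78 in Ad-atrogin-1, against 9.87 and 10.17 in Ad-GFP (log2 fold change -0.30, standard error 0.15). Stat5b had a log2 fold change of 0.29 with overlapping groups, and Ptpn11, which encodes the phosphatase SHP2 that binds gp130, had 0.28 (standard error 0.13) without overlap. None of the 10 reached an unadjusted p under 0.05.

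Of 13 inhibitors of cytokine signaling, 4 were lower and 4 higher without overlap, with a median of -0.10. Cish, a SOCS family member induced by STAT5, had 7.04 and 6.88 in Ad-atrogin-1, against 7.31 and 7.81 in Ad-GFP (log2 fold change -0.60, standard error 0.19). Ptpn2, a phosphatase of JAK and STAT proteins, had -0.42 (standard error 0.13), and Pias3, which encodes an inhibitor of STAT3, had 0.33 (0.15). Adjusted over all genes, their p was 0.277, 0.266 and 0.424 (limma).

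Of 37 genes known as STAT3 targets or acute-phase genes, 18 (48.6%) were lower and 3 (8.11%) higher without overlap, with a median log2 fold change of -0.30. By limma, an unadjusted p under 0.05 was reached by 15 of the 37 (40.5%), against 13.4% of all genes. The list was drawn up with earlier results of these data known, so these shares are a description and not a test. The largest differences were those of the secreted proteins Reg3g, Hpx and Lbp. Reg3g, an antimicrobial lectin, had 5.57 and 4.12 in Ad-atrogin-1, against 6.08 and 6.40 in Ad-GFP (log2 fold change -1.40, standard error 0.46). Hpx, the heme carrier hemopexin, had 7.26 and 6.64 in Ad-atrogin-1, against 7.92 and 8.58 in Ad-GFP (-1.30, standard error 0.29). Lbp, the lipopolysaccharide binding protein, had 6.98 and 6.20 in Ad-atrogin-1, against 7.17 and 8.11 in Ad-GFP (-1.05, standard error 0.38). All 3 were lower without overlap, with p of 0.284, 0.159 and 0.333 adjusted over all genes (limma).

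Smaller differences with tighter replicates were seen at Junb and Cebpd, transcription factor genes of this list chosen after their values were seen. Junb, an AP-1 subunit, had 8.61 and 8.54 in Ad-atrogin-1, against 9.21 and 9.33 in Ad-GFP (-0.69, standard error 0.12, adjusted p over genes 0.0923 by limma). Cebpd, a C/EBP factor of the acute-phase response, had 8.95 and 8.73 in Ad-atrogin-1, against 9.53 and 9.65 in Ad-GFP (-0.75, standard error 0.14, adjusted p over genes 0.0991). Genes whose products block cell death went both ways: Mcl1 and Bcl2l1 were lower without overlap (-0.29 and -0.39), and Bcl2 and Birc5 higher without overlap (0.22 and 0.35). Vegfa, the vascular growth factor gene, was the highest of the list at 0.58 (standard error 0.17), without overlap. The fibrinogen genes Fga, Fgb and Fgg, whose main site is the liver, had signals of at most 3.35 on every array, under the lower quartiles, so no difference could be read for them.

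**Figure D4:**
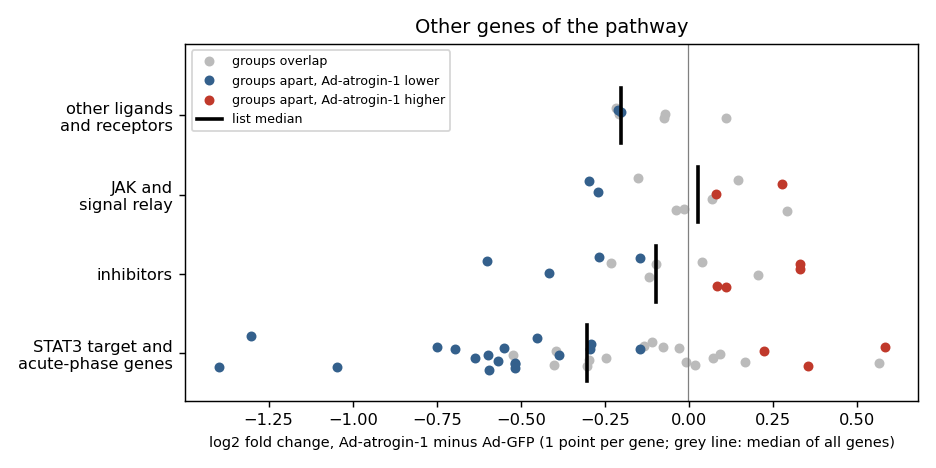
Log2 fold change (Ad-atrogin-1 minus Ad-GFP, horizontal axis) of the measured genes of 4 lists, 1 point a gene, in blue or red where the groups do not overlap and in grey where they do, with black bars at the list medians. Medians are -0.20 for other ligands and receptors, 0.03 for the JAK and signal relay, -0.10 for inhibitors and -0.30 for STAT3 target and acute-phase genes.

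The 6 genes whose pattern over the 4 arrays was nearest to that of Il6 were Serpinb2, Cxadr, Csf2, Ptgs2, Mmp3 and Slc1a1. Nearness was the Euclidean distance of log2 signals after each probe set was centred on its own mean, and it ran from 0.55 for Serpinb2 to 0.81 for Slc1a1. With 4 arrays this is a description and not a test. Serpinb2, a plasminogen activator inhibitor, had 8.13 and 7.75 in Ad-atrogin-1, against 9.66 and 10.92 in Ad-GFP. Csf2, the gene of the cytokine GM-CSF, had 6.49 and 6.25 in Ad-atrogin-1, against 7.79 and 8.75 in Ad-GFP, and Ptgs2, the cyclooxygenase-2 gene, had 8.67 and 8.39 in Ad-atrogin-1, against 9.83 and 10.78 in Ad-GFP. Cxadr encodes the coxsackievirus and adenovirus receptor, through which many adenoviruses enter cells, and had 3.80 and 3.11 in Ad-atrogin-1, against 4.79 and 5.52 in Ad-GFP. Its Ad-atrogin-1 signals lay under the lower quartiles, so the size of its difference is not exact. Each of the 6 was lowest in Ad-atrogin-1 replicate 2 and highest in Ad-GFP replicate 2, as was Il6, which largely follows from choosing them by nearness to it.

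**Figure D5:**
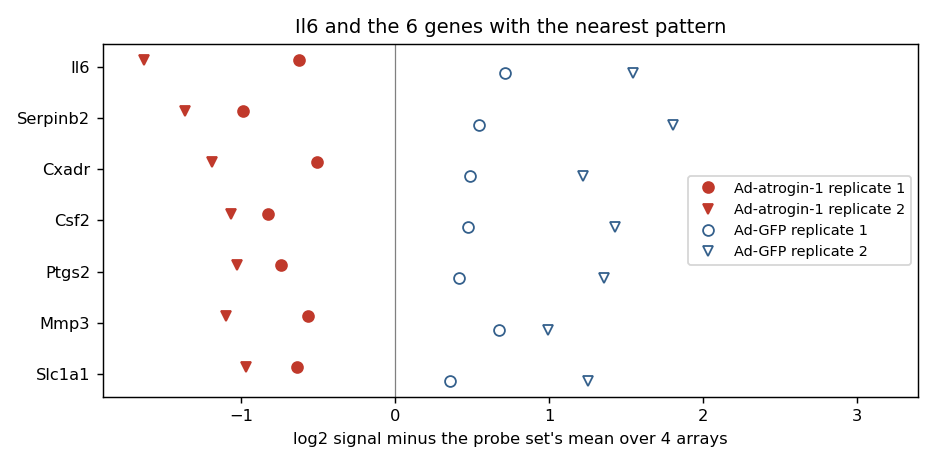
Log2 signal on each array minus the mean of the probe set over the 4 arrays (horizontal axis) for Il6 and the 6 genes nearest to it. Filled red symbols (Ad-atrogin-1) lie left of open blue symbols (Ad-GFP) for all 7, with Ad-atrogin-1 replicate 2 lowest and Ad-GFP replicate 2 highest.

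Markers of the cardiomyocytes and of other cells that can make these cytokines were read beside the members. The counts below stand against 20.7% of all genes higher and 22.3% lower without overlap. Of 5 cardiomyocyte markers, Tnni3 (0.33) and Myl2 (0.34) were higher and none lower in Ad-atrogin-1 without overlap. The groups overlapped at Myh6 (0.82), Tnnt2 (-0.11) and Actn2 (-0.17). The median log2 fold change of the 5 was 0.33. Their summed linear signal was 23326 and 18183 in Ad-atrogin-1, against 18050 and 19584 in Ad-GFP. Of 7 fibroblast markers, 2 (28.6%; Col1a2 at 0.29 and Col3a1 at 0.36) were higher and none lower in Ad-atrogin-1 without overlap. The groups overlapped at Col1a1 (0.21), Postn (0.18), Dcn (-0.30), Pdgfra (-0.08) and Thy1 (-0.04). The summed linear signal of the 7 was 12183 and 11688 in Ad-atrogin-1, against 9450 and 12457 in Ad-GFP. Of 6 macrophage and leukocyte markers, 1 was higher (Cd163, at most 2.84 on every array) and none lower without overlap, with summed linear signals of 353 and 154 in Ad-atrogin-1, against 224 and 258 in Ad-GFP. Cd14, a monocyte and macrophage receptor, had 7.40 and 5.58 in Ad-atrogin-1, against 6.35 and 6.77 in Ad-GFP. Cd14 and Il6 were thus both lower in replicate 2 than in replicate 1 of Ad-atrogin-1. Both were higher in replicate 2 than in replicate 1 of Ad-GFP, while Cd14 overlapped between the groups and Il6 did not. Cd68 and Csf1r had the same order within each group as Cd14. Ptprc and Itgam instead were lower in replicate 2 than in replicate 1 of Ad-GFP, and Cd163 was equal on the Ad-atrogin-1 arrays. The part of such cells in the Il6 result was not tested. None of 4 endothelial markers was without overlap, and 1 of 4 smooth muscle markers was higher. Of 5 mesothelial and epithelial markers, the keratin gene Krt19 was higher without overlap, at 7.89 and 8.09 in Ad-atrogin-1, against 3.20 and 5.48 in Ad-GFP, and Krt18 was lower, at 6.06 and 6.33 in Ad-atrogin-1, against 7.47 and 6.58 in Ad-GFP.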

How the data were processed

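Per the methods, the authors hybridized biotin-labeled cRNA to Affymetrix rat genome arrays and turned the scans into log2 signals, 1 for each probe set, with the RMA method of GeneSpring GX. RMA quantile-normalizes the arrays and so makes their distributions alike. These deposited log2 values were used unchanged. Control probe sets (57) were left out, with no filter on low signal. Of the 31042 others, 20826 were paired with 1 gene, 436 with several and 9780 with none, and symbols were updated by gene ID. Groups came from the sample labels.

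Ad-atrogin-1 was compared with Ad-GFP in limma (version 3.58.1, R version 4.3.3) through lmFit and eBayes, with two-sided p and without a block. The prior had 3.65 degrees of freedom beside 2 residual ones. Adjustment was by Benjamini-Hochberg over the 31042 probe sets. For lists, the brightest probe set stood for a gene and p was adjusted over 14217 genes. A call needed an adjusted p under 0.05 and 2-fold. On simulated data of 31042 probe sets, 84.0% of those changed by 1.5 on the log2 scale and 95.6% of those changed by 2.25 were called, beside 10.4 unchanged ones per simulation. The simulated variances were drawn from the prior of this same fit (SD 0.139), with independent normal errors. These shares therefore do not give the chance of calling a gene such as Il6, whose SD was 0.71 in Ad-atrogin-1 and 0.59 in Ad-GFP. The labels call the arrays biological replicates, and per the methods RNA came from independent experiments; which experiment gave which array is not given in the sources used here. The limma p, standard errors and intervals combine the spread between these arrays at a probe set with the prior from all probe sets. The number of arrays limits the precision.

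Named were all members, the 3 genes with the largest change in each list, the 6 genes nearest to Il6, and Fbxo32. Other genes of the lists (such as Osm, Junb, Cebpd, Mcl1, Bcl2l1, Bcl2, Birc5, Vegfa, the fibrinogens and single cell type markers) were named after their values were seen. The members, lists and rules were chosen with earlier results of these data known. Promoters were the 250 bases before the RefSeq start (GRCr8), matched by gene symbol. Figures were drawn with matplotlib 3.10.9. Alternatives are given in the closing section.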

Additional observations from a re-analysis of the deposited data

How the results depend on the processing

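No member probe set had an adjusted p under 0.05 in any of the 16 alternatives. The lowest was 0.0904 (limma), for Il6 when the dimmest probe sets were dropped (upper 60% kept). The adjusted p of Il6 ran up to 0.643 with an equal-variance t-test. Il6, at -2.25, was the 1 member called by limma with an unadjusted p under 0.05 together with 2-fold, and by 2-fold with no test. The t-test called none, and 1 member probe set (Il6st, 1370957_at) had an unadjusted p under 0.05 in it. The methods describe a comparison of means for the arrays without naming the test, so this t-test may differ from the authors' own. With an array left out, the log2 fold change of Il6 ran from -2.76 to -1.75. Of the 14 probe sets, 12 kept their direction in every alternative that tested them. Stat3 (1371781_at) had -0.047 after a further quantile normalization and -0.090 to 0.12 with an array left out, and Lifr (1395957_at) -0.042 to 0.16. With an array left out, Il11 ran from -0.92 to -0.36, Ctf1 from -0.56 to -0.24, Socs3 from -0.46 to -0.17, and Il6st from 0.18 to 0.39 (1371926_at), 0.30 to 0.84 (1373140_at) and 0.40 to 0.79 (1383489_at); Lifr (1369228_at) ran from -0.29 to -0.0079 and Stat3 (1370224_at) from -0.14 to -0.0004.

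Over all probe sets, limma called 77 higher and 8 lower; with each array centred on its median or after quantile normalization 14 were called lower, and 13 in the upper 60%. An unadjusted p under 0.05 together with 2-fold gave 217 higher and 78 lower with limma and 158 and 33 with the t-test. A 2-fold change with no test gave 220 and 84, and the adjusted t-test 0 and 0. With any array left out, limma called 0 higher and 0 lower, from 1 residual degree of freedom, the lone array of a group being assumed to vary like the others. With the replicate number as a block, 1 was called higher and 0 lower; the deviations of same-numbered arrays correlated at 0.04, and the labels do not say that a number marks a shared preparation. The cause of these shifts was not tested.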
